A study of Mus musculus with 2 samples.

Results

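The cells described here were oligodendrocyte-marker barcodes of adult mouse striatum in which at least 20% of the UMIs lay on the mitochondrial genome. A barcode is the droplet label that stands for 1 cell, and a UMI (unique molecular identifier) marks 1 captured RNA molecule. A member had at least 300 detected genes, at least 1 UMI on 3 or more of *Mog*, *Mobp*, *Mag*, *Opalin*, *Ermn*, *Cldn11*, *Tubb4a* and *Hapln2*, and at least 20% of its UMIs on the 13 genes whose symbols begin with mt-. There were 509 such barcodes, 287 in library 1 and 222 in library 2, among 12262 barcodes with 300 or more genes and 4503 that met the marker rule. They were set against the 3815 marker-positive barcodes at under 15%, 2510 in library 1 and 1305 in library 2. A further 179 lay from 15% to under 20% and entered neither group. The members were thus selected on their mitochondrial share and on UMIs of the 8 markers, and these values are given as a description, without a test.

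The study profiled striatal cells to examine differences among astrocytes within 1 brain region, and the 2 libraries used here are replicates 1 and 2 of a single untreated condition. The tissue came from mice given in the labels as strain C57/Bl6J at 8 to 10 weeks of age, with C57BL/6NTac named in the extraction protocol and other ranges of age in the series' design text and the study's methods. It was digested with pronase, filtered, cleared of myelin with a debris removal kit and labelled as enriched for glia, so the cells are those that survived these steps. The study's methods also describe actinomycin D in the recovery, digestion and trituration solutions, meant to keep stress from changing transcription. How many animals each library held, and which of the 2 kit versions named in the protocol it was made with, is not given in the sources used here. Library 1 held 6978 barcodes and 44597660 UMIs and library 2 held 5437 barcodes and 37982720 UMIs, and 9 barcode sequences occurred in both.

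Oligodendrocytes wrap axons in myelin, a stack of membrane rich in cholesterol and galactolipids, and they supply axons with lactate and are rich in iron and its binding proteins. Each mitochondrion carries its own small genome, which encodes 13 subunits of the respiratory chain, whereas all other subunits are encoded in the nucleus, translated in the cytosol and imported. Mitochondrial transcripts stay inside the organelle. The share of UMIs on mt- genes is a routine filter in single-cell work, and it depends on the mitochondrial UMIs and on all other UMIs of the barcode alike.

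The rule required UMIs on 3 or more of the 8 markers, so their presence in the members was fixed in advance. Their levels are a description and no support for the name. Of the 8 rule markers, 6 or more were detected in 177 of 287 members of library 1 (61.7%) and in 165 of 222 of library 2 (74.3%). *Mag*, a myelin-associated adhesion protein, was the most abundant of them in the members, with 6328 and 8732 CPM in the members of libraries 1 and 2 and 2417 and 3455 CPM in the comparison barcodes, where CPM is the count scaled to 1000000 nuclear UMIs of the summed barcodes. *Hapln2*, which links matrix at nodes of Ranvier, stood at 684 against 189.8 CPM in library 1 and 750.2 against 265 CPM in library 2, *Mog*, a protein of the outer myelin surface, at 2329.8 against 1290.3 CPM in library 1 and 2785 against 1884 CPM in library 2, and *Cldn11*, the tight junction protein of myelin, at 3779.8 against 2435 CPM in library 1 and 5551 against 3902 CPM in library 2. All 3, like *Mag*, were higher in the members of both libraries by the rule as it stands. Without the mixed barcodes described next, *Cldn11* had 4336 against 4522 CPM in library 1 and 6036 against 4841 CPM in library 2, so that its order turned in library 1, as did that of *Opalin*, a myelin glycoprotein (859 against 1019.6 CPM in library 1 and 1658 against 1472 CPM in library 2), and of the sum of the 8 markers (18994 against 21747 CPM in library 1 and 24168 against 21312 CPM in library 2). *Ermn*, a cytoskeletal protein, had the opposite order by the rule with 486 against 1032 CPM in library 1 and 618 against 1521 CPM in library 2, as had *Mobp*, a cytosolic myelin protein, with 1886 against 2597 CPM in library 1 and 1571 against 2941 CPM in library 2, and *Tubb4a*, a tubulin, with 398 against 1265 CPM in library 1 and 726 against 2078 CPM in library 2.

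The comparison group held a larger share of barcodes with many markers of another class than the members did. In library 1, 1535 of its 2510 barcodes (61.2%) carried at least as many markers of another class as of the oligodendrocyte, and in library 2 394 of 1305 (30.2%); these are called mixed barcodes below. Among the members the same count was 40 of 287 (13.9%) in library 1 and 15 of 222 (6.76%) in library 2. The number of rule markers per barcode had 2 peaks in the comparison group, at 3 and at 8, and the members had their main peak at 7 and a smaller one at 3. Barcodes with only 3 or 4 markers made up 58.4% of the comparison group and 19.5% of the members of library 1, and 24.0% and 14.0% of those of library 2. All 8 markers were found in 20.5% of the comparison barcodes and 13.2% of the members of library 1. In library 2 these shares were 52.1% and 18.5%. The rule itself used these markers, so their number is given as a description.

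**Figure D1:**
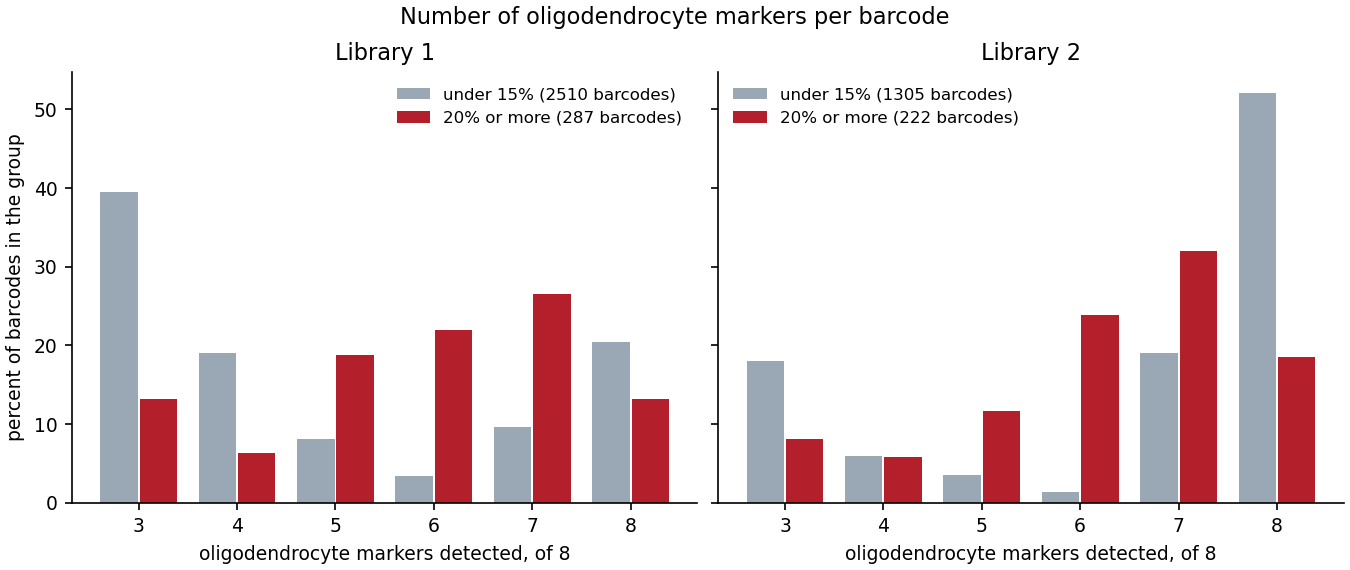
Number of the 8 oligodendrocyte rule markers with at least 1 UMI per barcode (x axis) as percent of the barcodes of each group (y axis), in library 1 (left) and library 2 (right). Grey bars, under 15% mitochondrial UMIs, have a peak at 3 and another at 8 markers; red bars, 20% or more, have a single main peak at 7.

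Microglial genes were among those that the comparison group held. The 8 microglia markers summed to 834 and 433 CPM in the members of libraries 1 and 2 and to 6743 and 2249 CPM in the comparison barcodes. At least 3 astrocyte markers were found in 21.6% and 9.01% of the members and in 43.5% and 29.6% of the comparison barcodes, which were also deeper. Thinned to 500 nuclear UMIs, *Slc1a2*, the astrocytic glutamate transporter, was detected in 26.1% and 11.4% of the members and in 23.2% and 11.1% of the comparison barcodes, and *C1qa*, a complement gene of microglia, in 6.27% and 2.28% against 22.1% and 10.7%. At that depth at least 3 rule markers were still found in 79.4% and 90.4% of the members and in 39.5% and 71.3% of the comparison barcodes. Scrublet, a caller of doublets, marked 0 of 287 members in library 1 and 9 of 222 in library 2, against 68 of 2510 and 76 of 1305 comparison barcodes. For the 0 of 287, a limit of 3 marks (1.05%) was taken, which bounds the marks of Scrublet and not the doublets themselves. The counts over lists of nuclear genes below are therefore given in 3 forms, and the value of a single gene is by the rule unless another form is named. The forms are by the rule as it stands, without mixed barcodes (247 and 207 members against 975 and 911), and with every barcode thinned to 500 nuclear UMIs and the marker rule applied again (228 and 198 members against 984 and 929).

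Members made up 9.75% of the marker-positive barcodes of library 1 (exact binomial 95% interval 8.70 to 10.9%) and 14.2% of those of library 2 (12.5 to 16.1%), a mean of 12% ± 3.18 (SD, n = 2). The intervals cover counting error only. Without mixed barcodes the shares were 18.8% (247 of 1312) and 18.2% (207 of 1140), a mean of 18.5% ± 0.473, so that the libraries then lay closer together. At 25% or more the shares were 5.23% and 11.1%. Barcodes outside the oligodendrocyte rule that carried at least 3 markers of another class, and more of it than of any other, gave 16.1% and 30.7% for neurons, 8.67% and 16.9% for astrocytes, 1.70% and 5.56% for oligodendrocyte precursors and 0.929% and 1.36% for microglia. Over all barcodes the share was 7.25% and 11.0%. Since the oligodendrocyte rule was applied first and kept the mixed barcodes, while the other classes hold none that met it, these shares are of unlike groups and were not compared.

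Within the members the mitochondrial share ran from 20.1% through a median of 25.2% to 56.1% in library 1 and from 20.0% through 30.0% to 70.3% in library 2. The 3 lowest members of library 1 had 20.1 to 20.2% and the 3 highest barcodes left out just below had 19.7 to 20.0%; in library 2 these were 20.0 to 20.3% and 19.7 to 20.0%. Both libraries thus had barcodes on each side of the limit without a gap. Members at 30% or more numbered 62 in library 1 and 110 in library 2.

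The members differed from the comparison barcodes in their nuclear UMIs far more than in their mitochondrial ones. Without mixed barcodes, the median was 724 mitochondrial UMIs per member against 620 per comparison barcode in library 1, and 813 against 865 in library 2, which are ratios of 1.17 and 0.940. Nuclear UMIs had medians of 2002 against 12453 and of 1722 against 12498, so the comparison barcodes held 6.22 and 7.26 times as many. Detected genes followed, with medians of 991 against 3706 and 895 against 3788. By the rule as it stands the mitochondrial ratio was 2.21 in library 1 and 1.02 in library 2, and the nuclear one 4.05 and 6.81. Both totals enter the share that chose the members, so no test applies.

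**Figure D2:**
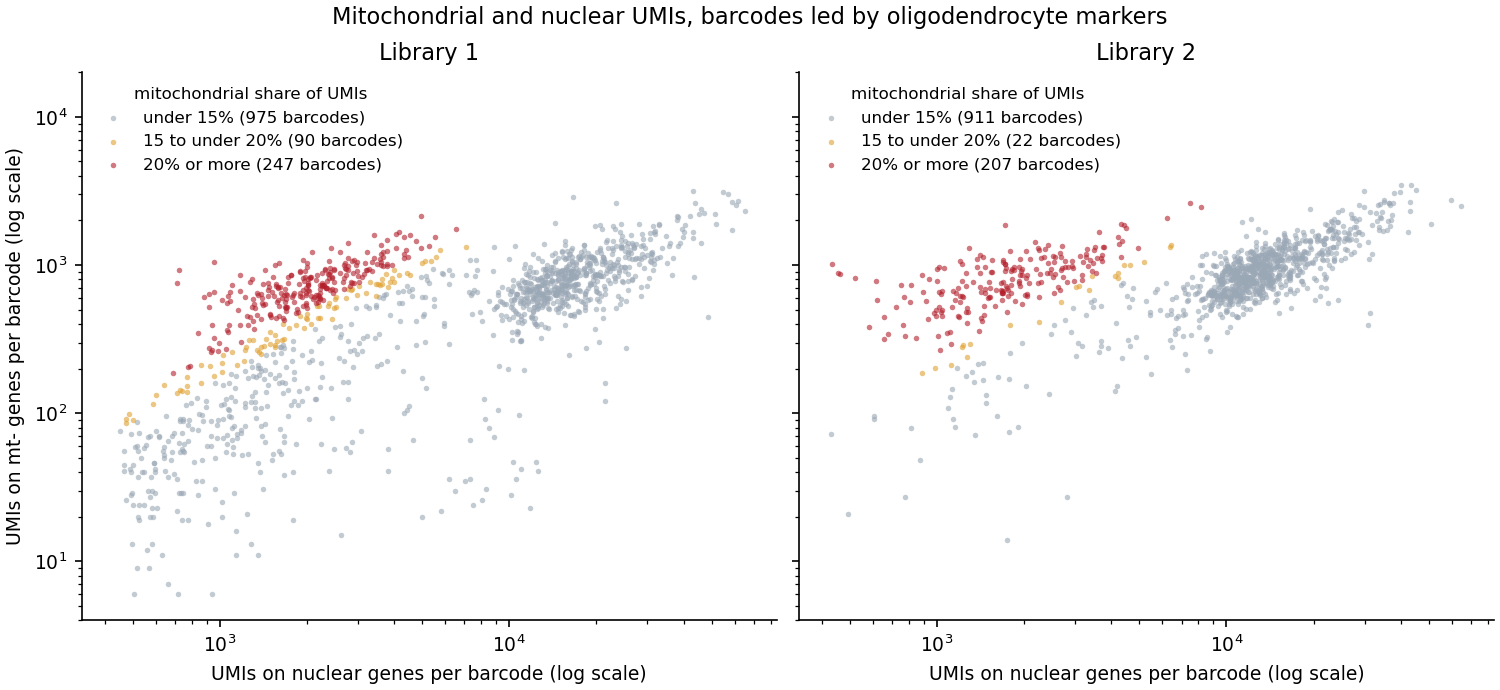
UMIs on nuclear genes (x axis, log scale) and on mt- genes (y axis, log scale) of each oligodendrocyte-marker barcode that was not mixed, in library 1 (left) and library 2 (right). The members (red) lie at the same height as the main cloud of comparison barcodes (grey) but to its left, around 2002 and 1722 nuclear UMIs where the comparison group has medians of 12453 and 12498; library 1 also has a tail of shallow grey barcodes with few UMIs of either kind.

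Among the members a larger share went with fewer nuclear UMIs, with Spearman's rho of -0.321 over 287 barcodes and -0.547 over 222, and with slightly more mitochondrial UMIs, with rho of 0.238 and 0.127. These correlations describe cells of 1 library each, and the share is built from the same totals. The range of 40% to under 50% in library 2 held 25 barcodes with a median of 889 mitochondrial and 1002 nuclear UMIs. At an equal number of nuclear UMIs the members still showed fewer different genes. Thinned to 500 nuclear UMIs, they had a median of 317 and 316.5 genes against 364 and 367 in the comparison barcodes, mixed barcodes left out. A single gene, *Malat1*, had 177939 and 144022 CPM in these members of libraries 1 and 2 before thinning. The comparison barcodes had 51161 and 44450 CPM, so fewer of the members' 500 UMIs were left for other genes. How much of the difference in detected genes came with this was not tested.

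Which mitochondrial genes supplied the UMIs was much alike in the 2 groups. *mt-Atp6*, subunit a of the ATP synthase, led with 23.7% of the mitochondrial UMIs in the members of either library and 21.6% and 21.9% in the comparison barcodes. It was followed in the members by *mt-Co3* (15.8% and 17.4%), *mt-Co2* (15.6% and 15.5%), *mt-Cytb* (15.1% and 13.7%) and *mt-Co1* (13.6% and 12.6%), which encode subunits of cytochrome c oxidase and, for *mt-Cytb*, of the cytochrome bc1 complex. The share of *mt-Atp6* was 1.10 and 1.08 times that of the comparison group in libraries 1 and 2. *mt-Nd5*, a proton-pumping subunit of complex I, departed most, with 0.524% and 0.532% in the members against 0.716% and 0.761%, ratios of 0.732 and 0.699. *mt-Co1* had 0.922 and 0.835, *mt-Nd4* 0.933 and 0.896, and *mt-Nd1* 0.885 and 0.935. By the rule, *mt-Nd2*, *mt-Nd3* and *mt-Nd6* lay on opposite sides of 1 in the 2 libraries. Without mixed barcodes *mt-Nd3* and *mt-Nd6* still did, whereas *mt-Nd2* had ratios of 1.06 and 1.05.

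**Figure D3:**
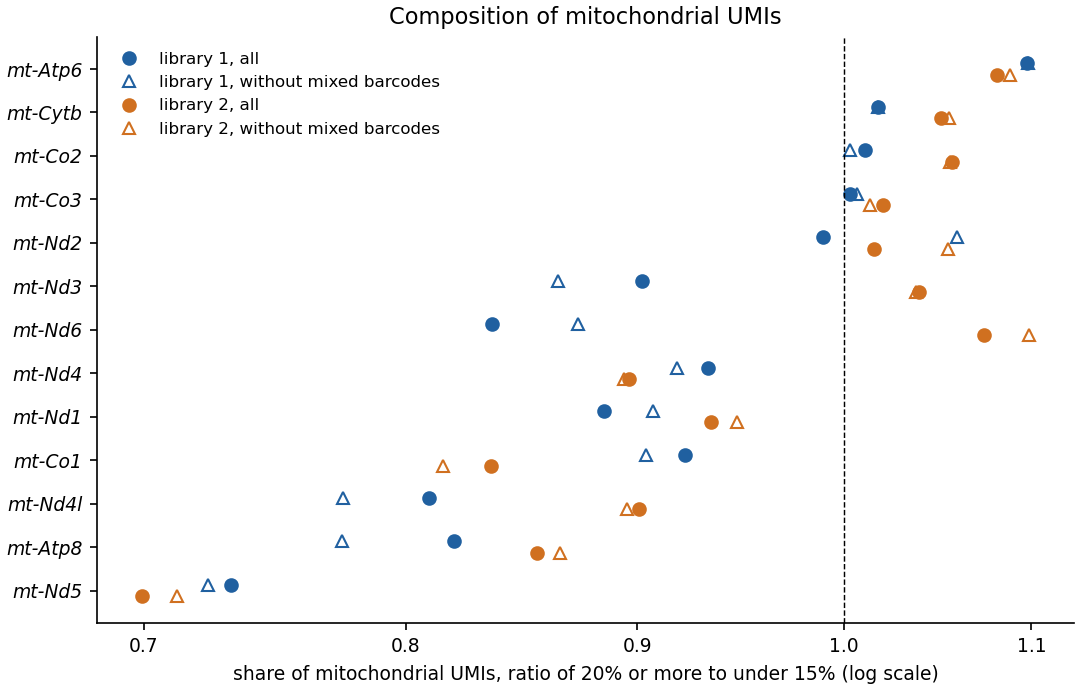
Ratio of each mt- gene's share of the mitochondrial UMIs in barcodes at 20% or more to that in barcodes at under 15% (x axis, log scale), for the 13 mt- genes (y axis), in library 1 (blue) and library 2 (orange), for all barcodes of the rule (filled circles) and without mixed barcodes (open triangles). *mt-Nd5* has the lowest ratios, 0.732 and 0.699, and *mt-Atp6* the highest in library 1, 1.10.

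The 2 ATP synthase genes are read from 1 transcript and overlap, which is shown here because their ratios differ and a read in the shared stretch cannot be given to either. *mt-Atp8* (chrM:7766-7969, GRCm38, plus strand) ends inside *mt-Atp6* (chrM:7927-8607), and the 43 shared bases at chrM:7927-7969, from the GENCODE transcripts, begin with the start codon of *mt-Atp6* and end with the stop codon of *mt-Atp8*, both in capitals.
overlap of mt-Atp8 and mt-Atp6: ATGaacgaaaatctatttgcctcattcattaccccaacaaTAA
*mt-Atp8* made up 0.169% and 0.164% of the mitochondrial UMIs of the members against 0.206% and 0.192%, with ratios of 0.820 and 0.855 where those of *mt-Atp6* were above 1. *mt-Nd4l*, which overlaps *mt-Nd4* in the same way, had ratios of 0.810 and 0.901.

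Nuclear genes were then compared as shares of the nuclear UMIs, that is without the mt- genes in the counts or in the library sizes. The sums held 633102 and 454530 nuclear UMIs for the members of libraries 1 and 2 and 25163397 and 17060074 for the comparison barcodes. In the quasi-likelihood test of edgeR with Benjamini-Hochberg adjusted p-values, 2823 of 14272 genes passed 0.05, 1322 (9.26%) higher and 1501 (10.5%) lower in the members. Without mixed barcodes 2929 of 12291 passed, 1440 (11.7%) higher and 1489 (12.1%) lower. After thinning 999 of 4869 passed, 520 (10.7%) higher and 479 (9.84%) lower. All 3 fits called 761 genes, 384 higher and 377 lower, and none of these changed direction between them. Of the 1906 genes called both by the rule and without mixed barcodes, 57 had opposite directions. A higher value here is a larger part of the nuclear UMIs and need not mean more UMIs per barcode. Of *Malat1*, the nuclear gene with the most UMIs in the members, there were 389 and 288 UMIs per member in libraries 1 and 2 against 649 and 627 per comparison barcode, without mixed barcodes. *Mal*, a proteolipid of myelin rafts, had 29.9 and 29.5 UMIs per member in libraries 1 and 2 against 145 and 156 per comparison barcode, and *Cdh2* had 1.17 and 1.30 UMIs per member in libraries 1 and 2 against 1.09 and 1.64 per comparison barcode, which is nearly alike in the 2 groups.

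Globin genes and microglial receptor genes were among the largest falls by the rule as it stands. *Hbb-bs*, a beta globin of red blood cells, had 186 and 26.4 CPM in the members of libraries 1 and 2 and 5525 and 424 CPM in the comparison barcodes. It was lower in the members of both libraries and far higher in the comparison barcodes of library 1 than of library 2. Its log2 fold change was -4.38 ± 0.40 (SE; adjusted p = 8.44e-25), -4.86 without mixed barcodes and -2.94 after thinning. *Hbb-bt*, *Hba-a1* and *Hba-a2* fell with it. Globin genes are near-identical in pairs, so their separate values are uncertain. Of the other 8 among the 12 largest falls, 7 are given here, *Cx3cr1*, *Fcgr3*, *Kctd12*, *Maf*, *Lyz2*, *Ly86* and *P2ry12*, with log2 fold changes from -3.55 to -3.09, of which *Cx3cr1* and *P2ry12* are microglial receptors. None of these 7 passed without mixed barcodes, which are defined by markers that include *Cx3cr1* and *P2ry12*, and where *Lyz2* stood at -0.71 and the other 6 lay above 0, from 0.16 for *Maf* and 0.46 for *Cx3cr1* to 1.27 for *P2ry12* and 1.35 for *Ly86*.

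Of the 12 largest rises, 7 passed in all 3 fits and 5 did not pass after thinning or were not tested there. *Cdh2*, N-cadherin, an adhesion protein of the cell membrane, had 493 and 609 CPM in the members of libraries 1 and 2 and 96.5 and 123 CPM in the comparison barcodes. Both member sums lay far above both comparison sums, and the log2 fold change was 2.54 ± 0.25 by the rule (adjusted p = 1.98e-21), 2.65 without mixed barcodes and 2.18 after thinning. *Malat1*, a long noncoding RNA kept in the nucleus, had 164706 and 135692 CPM in the members of libraries 1 and 2 and 41936 and 41559 CPM in the comparison barcodes, and a log2 fold change of 2.06 ± 0.50 (adjusted p = 0.000702), 1.83 and 1.78. The others that passed in all 3 were *Vmp1*, a membrane protein of the endoplasmic reticulum (2.00, 1.50 and 1.73), *Lrp1b*, a receptor of the LDL family (2.02, 1.68 and 1.56), *Kcna6*, a potassium channel, *Kif5a*, a kinesin, and *Folh1*, a membrane peptidase.

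The rest of these rises were *Camk2a*, *Psd*, *Fbxl16*, *Cplx2* and *Nrgn*, of which *Camk2a* and *Nrgn* belong to synapses of projection neurons. They rose by the rule with log2 fold changes from 1.99 to 3.01, and none of the 3 that could be tested after thinning passed there. *Camk2a* stood at 218 against 26.4 CPM in library 1 and 33.0 against 6.57 CPM in library 2. The 8 neuron markers summed to 603 and 244 CPM in the members and 270 and 128 CPM in the comparison barcodes, each of them above 0 in all 4 sums. Their part in these rises was not tested.

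Markers of the other classes moved with the choice of barcodes. By the rule, 9.26% of all genes were higher and 10.5% lower in the members. All 8 microglia markers, 7 of 8 endothelial, 5 of 8 mural, 5 of 8 neuroblast and 3 of 8 precursor markers were lower. Higher were 7 of 8 neuron markers and 1 of 8 astrocyte markers, *Slc1a2*, the latter count near the share over all genes. Mixed barcodes were defined by these same markers and were removed more often from the comparison group than from the members, so the fit without them is no test of the markers. As a description, the microglia markers then summed to 596 and 451 CPM in the members and 221 and 132 CPM in the comparison barcodes, and the astrocyte markers to 1191 and 671 against 384 and 282 CPM. After thinning, 26 of the 56 markers of the other 7 classes were tested and none passed. In that fit 10.7% of all genes were higher and 9.84% lower. With at least 6 of the 8 rule markers required in both groups, a choice made after the data were seen, 4 of the 56 were higher and 5 lower. Over all genes of that fit, 792 of 12546 were higher and 1460 lower, so both marker counts lie near the share over all genes. How much of any difference below came with RNA of these classes was not tested.

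Some genes that passed in all 3 fits are given next, chosen after their values were seen and not by rank. They do not stand for all genes that passed. Other rises with a larger mean log2 fold change over the 3 fits were *Gm4258* (1.77), *Taf1d* (1.76), *Zcchc7* (1.71) and *Csmd3* (1.69). *Gm20594* (3.10) was larger still but had 0 UMIs in the members of library 1. Among the rises were *Abca2*, a lipid transporter of late endosomes (1166 against 338 CPM in library 1 and 1806 against 605 CPM in library 2, log2 fold change 1.90 ± 0.25), *Cept1*, which makes phospholipids in the endoplasmic reticulum (1.71 ± 0.23), and *Sec61a2*, a subunit of the channel that takes new proteins into it (1.82 ± 0.24). Among the falls were *Cfl1*, cofilin (381 against 1251 CPM in library 1 and 273 against 1145 CPM in library 2, -1.67 ± 0.28), *Pfn1*, profilin (-1.91 ± 0.27), and *Tppp3*, a tubulin-binding protein (-1.61 ± 0.26), together with *Marcksl1* (-2.04 ± 0.28) and the linker histones *H1f0* (-2.01 ± 0.31) and *Hist1h1c* (-1.86 ± 0.30).

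Structural genes of myelin were mostly higher by the rule, and fewer of them were called higher once mixed barcodes were left out. Of 16 myelin protein genes, all tested, 11 were higher and 1 lower by the rule, with a median log2 fold change of 0.85 against -0.07 for all genes tested; 5 were higher and 2 lower without mixed barcodes (median 0.36 against 0.05), and 10 higher and 2 lower after thinning. Over all genes, 9.26% were higher and 10.5% lower by the rule, 11.7% and 12.1% without mixed barcodes and 10.7% and 9.84% after thinning. The 2 of 16 lower in the last 2 fits lie near these shares. *Cnp*, a phosphodiesterase on the cytosolic face of myelin, was lower in the members of both libraries, 2151 against 6528 CPM in library 1 and 2937 against 6306 CPM in library 2 without mixed barcodes, a change of -1.26 ± 0.29 (adjusted p = 0.000216). By the rule *Cnp* stood at -0.71 (adjusted p = 0.0506) and did not pass. *Mbp*, translated from mRNA carried out into the myelin, passed in no fit (0.24, -0.38 and -0.18).

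Of the other myelin protein genes, *Cd9*, a tetraspanin, and *Gpr37*, a receptor that restrains differentiation, rose in all 3 fits. *Cd9* had 2012 against 1242 CPM in library 1 and 2999 against 1354 CPM in library 2 by the rule and rose by 1.14 ± 0.27 on the log2 scale (adjusted p = 0.000378), by 1.28 without mixed barcodes and by 1.06 after thinning. *Gpr37* rose by 1.47, 0.89 and 1.14. *Mal* rose by the rule (1.00 ± 0.31) and after thinning (0.62) but did not pass without mixed barcodes (0.43). *Plekhb1*, a protein that binds phospholipids, fell in all 3 fits, by -1.96 ± 0.25 in the one without mixed barcodes.

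Of 13 enzymes of myelin lipid synthesis, all tested, 10 were higher and 0 lower by the rule, 7 higher and 1 lower without mixed barcodes and 8 higher and 0 lower after thinning, where 9.26%, 11.7% and 10.7% of all genes were higher. Their medians were 1.20, 0.85 and 1.01 against -0.07, 0.05 and -0.02 for all genes. *Scd2*, the stearoyl-CoA desaturase, had 4364 and 6844 CPM in the members of libraries 1 and 2 and 1444 and 2800.3 CPM in the comparison barcodes. Every member sum exceeded every comparison sum, and the log2 fold change was 1.66 ± 0.29 (adjusted p = 8.44e-07). *Ugt8a*, which makes galactosylceramide, rose by 1.41 ± 0.25 and *Cers2*, a ceramide synthase, by 1.47 ± 0.24. *Gal3st1*, which sulfates galactosylceramide, was the 1 that fell without mixed barcodes (-0.60).

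Cholesterol synthesis genes were called in both directions by the rule and without mixed barcodes, but not after thinning. Of 17 genes, 7 were higher and 2 lower by the rule (9.26% and 10.5% over all genes) and 6 higher and 4 lower without mixed barcodes (11.7% and 12.1%); 13 were tested after thinning, of which 7 were higher and 0 lower (10.7% and 9.84%). The 2 lower by the rule are near the share over all genes. *Cyp51*, lanosterol demethylase, had 309.6 against 121 CPM in library 1 and 620.4 against 197 CPM in library 2 and rose by 1.72 ± 0.23 by the rule (adjusted p = 3.94e-11), by 1.28 without mixed barcodes and by 1.69 after thinning. *Msmo1*, *Dhcr7* and *Ebp*, like *Cyp51* membrane enzymes of the endoplasmic reticulum, rose by 0.93, 1.25 and 1.01 without mixed barcodes and passed in all 3 fits. *Hmgcs1*, *Fdps*, *Mvd* and *Idi1*, which act on water-soluble intermediates early in the pathway, were the 4 that fell without mixed barcodes, by -1.01, -0.85, -1.76 and -1.08. By the rule only *Mvd* and *Idi1* fell, and no gene of the list fell after thinning. *Mvd* was near the floor, with 0.0162 and 0.0193 UMIs per member in libraries 1 and 2 against 0.401 and 0.458 per comparison barcode, without mixed barcodes.

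**Figure D4:**
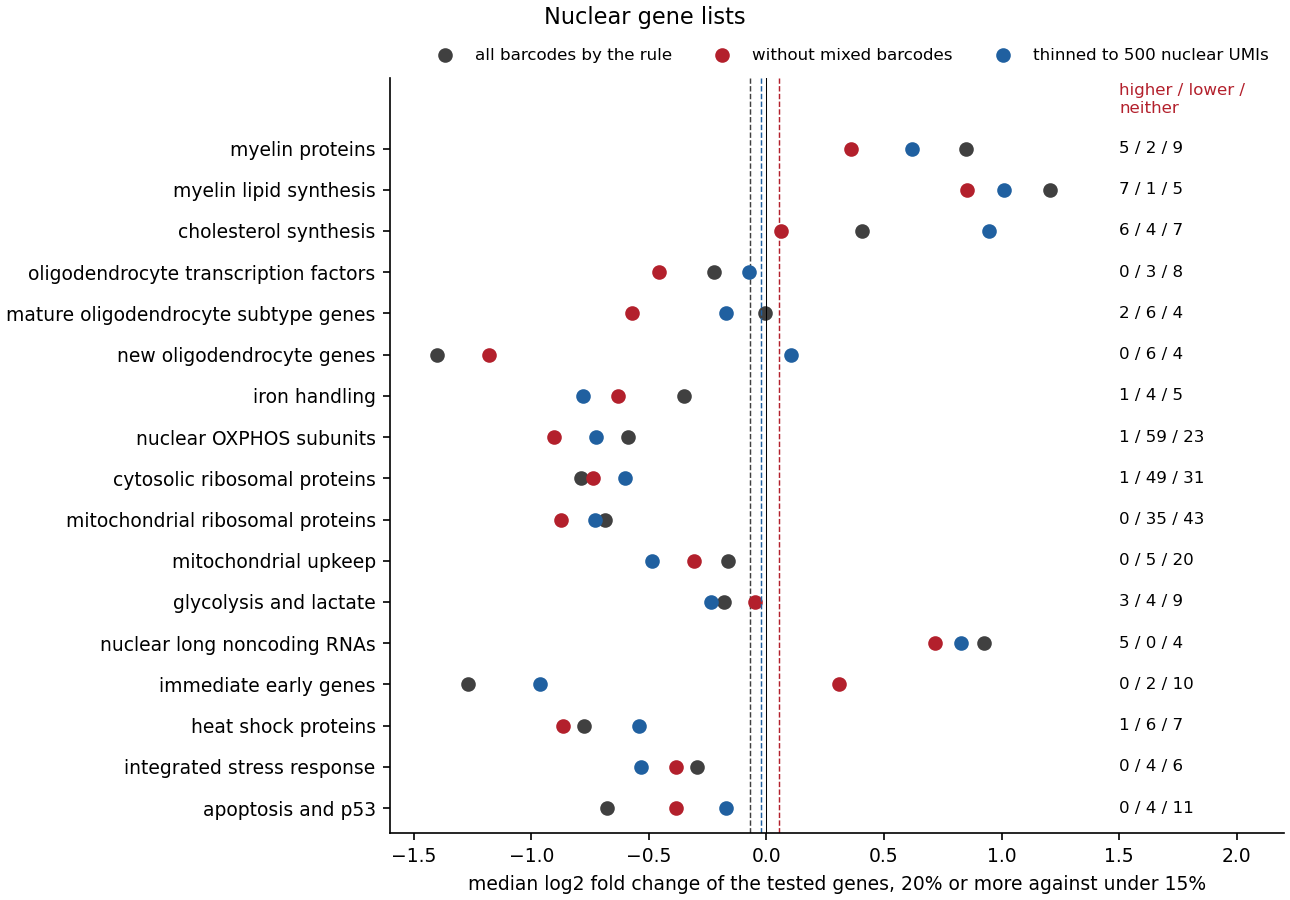
Median log2 fold change of the tested genes of 17 lists, members against comparison barcodes (x axis), by the rule (black), without mixed barcodes (red) and after thinning to 500 nuclear UMIs (blue), with dashed lines at the medians of all genes tested in each fit (-0.07, 0.05 and -0.02). The numbers at right count the genes that passed higher, passed lower and did not pass without mixed barcodes; myelin lipid synthesis has the highest and new oligodendrocyte genes the lowest median in that fit.

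Nuclear-encoded subunits of the respiratory chain that passed were lower, with 1 exception. Of 87 listed, 84 were tested by the rule, of which 1 was higher, 29 lower and 54 did not pass, where 10.5% of all genes were lower (median -0.59 against -0.07 for all genes), and without mixed barcodes 1 of 83 was higher and 59 lower beside 12.1% of all genes (median -0.90 against 0.05). After thinning 1 of 79 was higher and 37 lower, beside 9.84% lower of all genes. The 1 riser in each fit was *Cox6c*, a small subunit of cytochrome c oxidase in the inner membrane, with 1076 against 711 CPM in library 1 and 1575 against 793 CPM in library 2 and a log2 fold change of 1.01 ± 0.27 (adjusted p = 0.00237). *Cox4i1*, of the same complex, had 986 against 913 CPM in library 1 and 904 against 940.0 CPM in library 2, with groups that overlapped and a change of 0.25 ± 0.27 (adjusted p = 0.587).

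Many ribosomal protein genes were lower as well. Of 81 cytosolic ones tested, 1 was higher and 52 lower by the rule, 1 and 49 without mixed barcodes and 1 and 38 after thinning, where 10.5%, 12.1% and 9.84% of all genes were lower; *Rps21* was the riser by the rule (1772 against 1209 CPM in library 1 and 1305 against 849 CPM in library 2, 0.80 ± 0.27). Copies of these genes across the genome make single values uncertain. Mitochondrial ribosomal proteins, imported from the cytosol, had 0 higher and 26 lower of 78 by the rule, 0 and 35 without mixed barcodes and 0 and 7 of 57 after thinning, the last being near the 9.84% lower over all genes. *Mrps33* stood at 120.0 against 238 CPM in library 1 and 92.4 against 232 CPM in library 2 (-0.92 ± 0.26, adjusted p = 0.00483). Genes of mitochondrial upkeep had 0 higher and 5 lower of 27 by the rule, where over all genes 9.26% were higher and 10.5% lower, with a median of -0.16 against -0.07. They had 0 and 5 of 25 without mixed barcodes and 0 and 4 of 15 after thinning. *Bnip3l*, a receptor for the removal of mitochondria, at 183 against 473 CPM in library 1 and 158 against 580.1 CPM in library 2 (-1.39 ± 0.25, adjusted p = 2.01e-06), *Fis1*, of mitochondrial fission (-1.18 ± 0.25), *Vdac2*, a channel of the outer membrane (-0.92 ± 0.26), and *Bnip3* (-1.45 ± 0.38, not passing after thinning) were among the 5 by the rule. *Tfam*, which packages mitochondrial DNA, had a change of -0.12 ± 0.37 (adjusted p = 0.878).

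Of 11 transcription factors of the lineage, 1 was higher and 2 lower by the rule, 0 and 3 without mixed barcodes and 0 and 2 of 9 after thinning, beside shares over all genes of 9.26% higher and 10.5% lower, 11.7% and 12.1%, and 10.7% and 9.84% in the 3 fits. *Nkx6-2*, a homeobox factor of myelinating cells, had 194 against 285 CPM in library 1 and 187 against 515 CPM in library 2 and fell by -0.77 ± 0.24 (adjusted p = 0.0089), by -1.38 without mixed barcodes and by -0.79 after thinning. *Olig1* did not pass by the rule (-0.22, adjusted p = 0.583) and fell without mixed barcodes (-0.68, adjusted p = 0.0278) and after thinning (-0.52). *Sox10* passed in no fit (0.05, -0.33 and -0.02). Of 10 genes of newly formed oligodendrocytes, 0 were higher and 4 lower by the rule, 0 and 6 without mixed barcodes and 0 and 2 of 6 after thinning. Without mixed barcodes *Enpp6* stood at 0.04 and *Bcas1* fell by -0.59, which did not pass in the other fits, and *Fyn*, a kinase of early myelination, fell in all 3 (-2.27, -1.88 and -1.34).

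Genes that tell subtypes of mature oligodendrocytes apart moved both ways. Of 12, 4 were higher and 3 lower by the rule, 2 higher and 6 lower without mixed barcodes and 2 higher and 5 lower after thinning. The shares over all genes were 9.26% and 10.5%, 11.7% and 12.1%, and 10.7% and 9.84%, so the 2 of 12 higher in the last 2 fits lie near them. *Apod*, a secreted lipid carrier, had 3074 and 4658 CPM in the members of libraries 1 and 2 and 1125 and 2126 CPM in the comparison barcodes and rose by 1.51 ± 0.27 (adjusted p = 1.78e-06). *Ptgds*, a secreted prostaglandin synthase, had 13009 against 5061 CPM in library 1 and 22181 against 11741 CPM in library 2 and rose by 1.36 ± 0.32 by the rule, but did not pass without mixed barcodes (0.78, adjusted p = 0.0689). *Qdpr*, a soluble reductase, had 515 against 1904 CPM in library 1 and 437 against 2084 CPM in library 2 without mixed barcodes. Both member sums lay far below both comparison sums, and its change was -1.98 ± 0.26 (adjusted p = 1.48e-11). *Car2*, carbonic anhydrase 2, fell by -1.07 ± 0.27 and *S100b*, a calcium-binding protein, by -1.52 ± 0.25 in that fit.

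Iron genes were called in both directions. Of 12, 3 were higher and 4 lower by the rule, beside 9.26% and 10.5% over all genes; 10 were tested without mixed barcodes, 1 higher and 4 lower beside 11.7% and 12.1% over all genes, and 7 after thinning, 1 higher and 3 lower beside 10.7% and 9.84%. *Fth1*, the heavy chain of ferritin, had 9575 against 21355 CPM in library 1 and 9794 against 22659 CPM in library 2 without mixed barcodes and fell by -1.10 ± 0.34 (adjusted p = 0.0095), whereas by the rule it stood at -0.47 (adjusted p = 0.357). *Ftl1*, the light chain, fell in all 3 fits (-0.98, -0.98 and -0.78). *Trf*, the secreted iron carrier transferrin, rose by the rule (0.99 ± 0.29, adjusted p = 0.00608) and after thinning (0.68) but not without mixed barcodes (0.45, adjusted p = 0.291). The 1 gene that rose without mixed barcodes was *Tfrc*, its receptor (1.06).

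Genes of glycolysis and lactate passed about as often as all genes by the rule. Of 16, 1 was higher and 2 lower, where over all genes 9.26% were higher and 10.5% lower. Without mixed barcodes 3 were higher and 4 lower, beside 11.7% and 12.1% over all genes. After thinning 1 was higher and 2 lower of 13, near the 10.7% and 9.84% over all genes. *Gapdh* fell by -0.94 ± 0.27 (adjusted p = 0.00607), and *Aldoa* by -1.05 ± 0.26 without mixed barcodes. *Slc16a1*, which exports lactate across the cell membrane, had 145 against 54.8 CPM in library 1 and 202 against 97.5 CPM in library 2 and rose by 1.44 ± 0.24 (adjusted p = 1.53e-07); it passed in all 3 fits.

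Of 10 long noncoding RNAs of the nucleus, 8 were higher and 0 lower by the rule, 5 of 9 higher without mixed barcodes and 3 of 7 after thinning, where 9.26%, 11.7% and 10.7% of all genes were higher. With at least 6 of 8 markers, chosen after the data were seen, 2 of 9 were higher, beside 792 of 12546 genes. *Neat1*, which builds paraspeckles, had 349 against 108 CPM in library 1 and 488 against 237 CPM in library 2 and rose by 1.58 ± 0.23 (adjusted p = 6.34e-10), and *Kcnq1ot1*, an imprinted antisense RNA, by 0.74 ± 0.25 (adjusted p = 0.0199). *Meg3*, also abundant in neurons, rose by the rule (0.86) and stood at 0.01 without mixed barcodes. Of 13 immediate early genes, 0 were higher and 8 lower by the rule, 0 and 2 of 12 without mixed barcodes and 0 and 1 of 2 after thinning, beside 10.5%, 12.1% and 9.84% of all genes lower, so the 2 of 12 are near the share over all genes. Their median was -1.27 by the rule and 0.31 without mixed barcodes. *Jund* stood at 289 against 638 CPM in library 1 and 273 against 870.1 CPM in library 2 (-1.18 ± 0.26).

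Of 14 heat shock genes, 1 was higher and 6 lower by the rule and in the fit without mixed barcodes, and 1 and 5 of 9 after thinning, with the same 10.5%, 12.1% and 9.84% of all genes lower. The riser by the rule was *Hspa5*, the chaperone of the endoplasmic reticulum, with 1283 against 539 CPM in library 1 and 568 against 267 CPM in library 2 and a change of 1.39 ± 0.26 (adjusted p = 6.42e-06), and among the falls were the cytosolic chaperones *Cryab* (-0.84 ± 0.27) and *Hspa8* (-0.83 ± 0.28). Of 16 genes of apoptosis and p53, 15 were tested, 0 were higher and 5 lower by the rule, 0 and 4 without mixed barcodes and 0 and 1 of 6 after thinning, the last near the share over all genes, and *Bax* stood at -0.53 ± 0.26 (adjusted p = 0.144). Integrated stress response genes had 0 higher and 2 lower of 11 by the rule, beside 9.26% higher and 10.5% lower over all genes, 0 and 4 of 10 without mixed barcodes and 0 and 3 of 7 after thinning, with *Psat1*, of serine synthesis, at -1.06 ± 0.25.

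Levels were followed across ranges of the mitochondrial share, mixed barcodes left out, as a description. *Malat1* had 48160 and 47110 CPM below 5%, 182074 and 121477 CPM from 15% to under 20%, and 188276 and 145012 CPM from 20% to under 25% in libraries 1 and 2. The barcodes between the 2 groups were thus already near the members' level. *Fth1* went from 21830 and 22144 CPM below 5% to 8612 and 10868 CPM at 15% to under 20%, and *Qdpr* from 1715 and 1363 CPM below 5% and 2348 and 2267 CPM at 5% to under 10% to 424 and 565 CPM in the same range. In library 1 the 112 barcodes from 10% to under 15% stood between these levels for *Malat1* (125039 CPM) and *Fth1* (12486 CPM), and they had a median of 1627 nuclear UMIs, close to that of the members. In library 2 the 50 barcodes of that range lay nearer to the levels below 10%, with 57528 CPM for *Malat1*, 18629 CPM for *Fth1* and a median of 4371 nuclear UMIs. *Mal* had 10023 and 8120 CPM below 5%, 13848 and 11825 CPM at 5% to under 10%, and 14413 and 13307 CPM at 20% to under 25%.

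**Figure D5:**
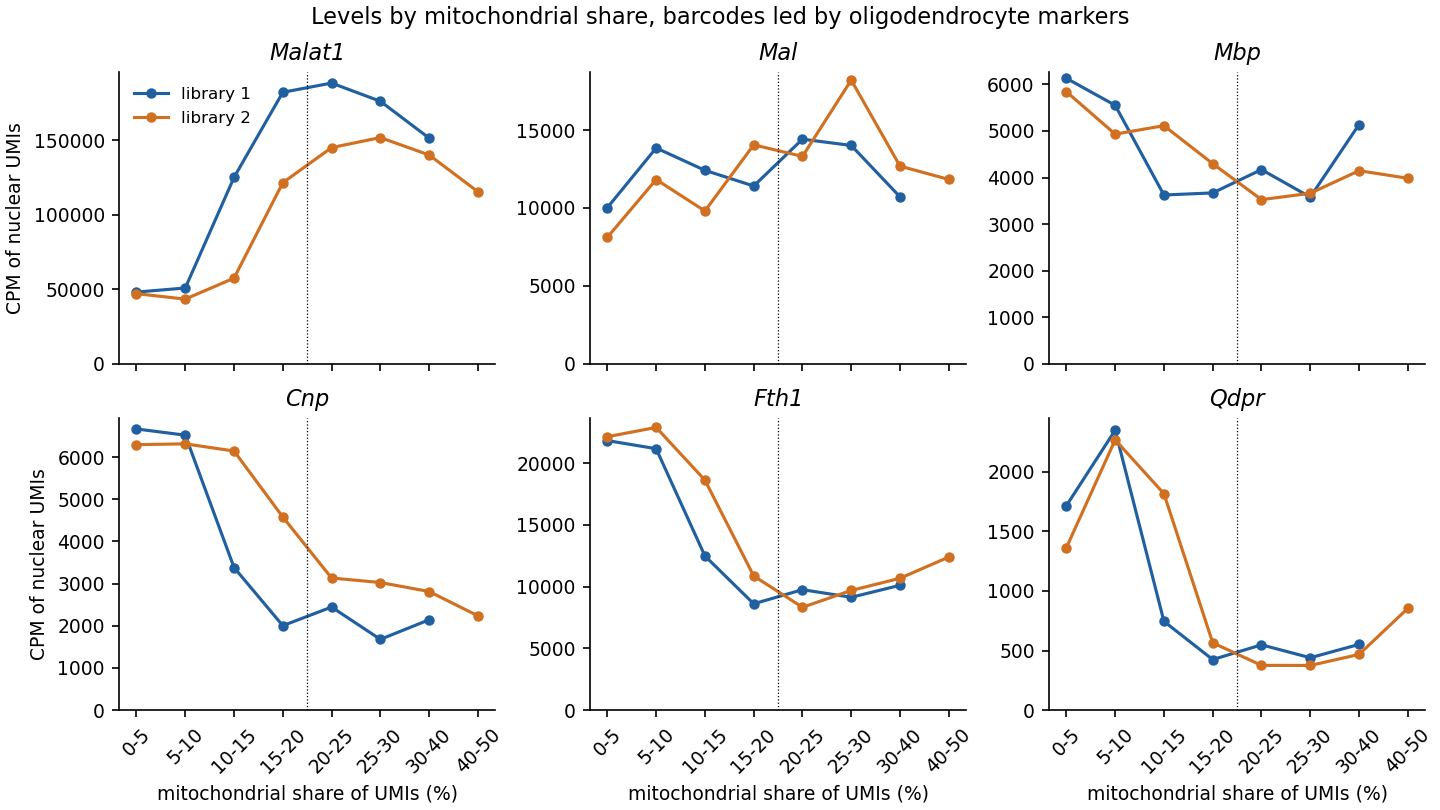
Level in CPM of nuclear UMIs (y axis, starting at 0) of 6 genes in ranges of the mitochondrial share (x axis, percent of UMIs), in library 1 (blue) and library 2 (orange), oligodendrocyte-marker barcodes without mixed ones and ranges of at least 20 barcodes; the dotted line marks 20%. *Malat1* rises and *Cnp*, *Fth1* and *Qdpr* fall before the line is reached. *Mbp*, between 3525 and 6128 CPM, is also lower at 15% to under 20% than below 5%. *Mal*, lowest below 5%, lies between 8120 and 18199.6 CPM.

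The same contrast of 20% or more against under 15% was made in astrocyte-marker barcodes, 89 and 169 against 850 and 742, and the 2 changes were compared by an interaction term in the same edgeR model. The astrocyte class held no barcodes with as many markers of another class, whereas the oligodendrocyte group by the rule did. By the rule 165 of 14272 genes (1.16%) differed, among them all 8 microglia markers and 5 of 8 endothelial markers, and without mixed barcodes 204 of 12291 did, among them 1 of 8 microglia and 0 of 7 endothelial markers; mixed barcodes were defined by these markers too. With no replicate block 0 genes differed in edgeR at the adjusted threshold (1011 had an unadjusted p under 0.05), which ends every call made by the rule here. *Cdh2* rose by 2.54 in the oligodendrocyte-marker barcodes and stood at 0.32 in the astrocyte-marker ones (adjusted p of the difference = 7.35e-07). It differed without mixed barcodes (adjusted p = 6.64e-08) and after thinning (adjusted p = 0.0039). *Vmp1* also differed in all 3, with 2.00 against -0.06 by the rule (adjusted p = 0.000251) and an adjusted p of 0.0219 and 0.0249 in the other fits. For *Malat1* the values were 2.06 against 0.25, with an adjusted p of 0.245 by the rule, 0.353 without mixed barcodes and 0.000807 after thinning. *Apod* and *Cyp51* differed by the rule (adjusted p = 3.85e-05 and 0.00144) and not after thinning (adjusted p = 0.293 and 0.122).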

How the data were processed

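The authors deposited raw UMI counts per gene and barcode, without normalization, for 2 libraries. The submitters' processing notes name Cell Ranger 4.0 and mm10, and the paper's methods another version. Members, gene lists and tests were chosen with earlier results of these data known. Counts were summed per library, marker class and mitochondrial group, at least 20 barcodes a sum, without the 13 mt- genes, and fitted in edgeR 4.0.16 with TMM, filterByExpr on the oligodendrocyte sums and a block for each library and class, so that each library's 2 groups, from 1 suspension, were paired. The fit over 16 sums of 4 classes had 4 residual degrees of freedom, and p-values rest on the spread shared between genes. The study's methods speak of several mice and of mouse IDs, but which animals these 2 libraries held is not given in the sources used here, so the spread may be technical. Fold changes used a prior count of 2. The fold changes were scaled by TMM and the printed CPM were not, so the 2 need not match. By the rule the TMM factors were 0.780 and 0.746 in the members of libraries 1 and 2 and 0.925 and 0.851 in the comparison barcodes. The 8 rule markers received no p. Names were drawn from the mt- genes, the rule markers, the 3 most abundant tested genes of each list, and the 12 largest rises and falls. These rises and falls were taken among genes with an adjusted p under 0.05, the same direction in both libraries and at least 100 CPM in 1 sum. Not every gene so drawn is named in the text, and other names were chosen after their values were seen. A few genes that remain in the fits and list counts are not reported here by name. Scrublet (scanpy 1.11.5) assumed 6% doublets, which were kept in the main fit. Gene positions are from GENCODE on GRCm38. The code was tested on simulated data. The alternatives are listed in the closing section, and 6 of 8 markers was chosen after seeing the data.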

Additional observations from a re-analysis of the deposited data

Results flagged for a closer look

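For 19 of the genes named here, the change between 20% or more and under 15% differed between oligodendrocyte-marker and astrocyte-marker barcodes in edgeR's interaction test with Benjamini-Hochberg adjustment, by the rule as it stands. Values are the log2 fold change in the oligodendrocyte-marker barcodes and then in the astrocyte-marker ones. A group of genes, most of them known from microglia, lay below 0 in the former and above 0 in the latter, with *Cx3cr1* at -3.55 and 0.80, *Fcgr3* at -3.36 and 1.40, *Kctd12* at -3.31 and 0.96, *P2ry12* at -3.09 and 0.66, *C1qb* at -2.25 and 0.50 and *C1qa* at -2.69 and 0.36. The same held for the endothelial genes *Cldn5* (-2.09 and 1.21), *Itm2a* (-2.96 and 0.45) and *Ly6c1* (-2.29 and 1.55). The globin genes *Hbb-bs* (-4.38 and -7.11) and *Hba-a1* (-3.86 and -6.40) were lower in both.

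The 2 groups were not alike in make-up, since the oligodendrocyte-marker group by the rule kept mixed barcodes and the astrocyte class held none. Without mixed barcodes, the values of *Cx3cr1*, *Fcgr3*, *Kctd12*, *P2ry12*, *C1qb*, *C1qa*, *Cldn5*, *Itm2a* and *Ly6c1* in the oligodendrocyte-marker barcodes lay from 0.46 to 2.11. Most of these genes are markers that define mixed barcodes, which were removed mainly from the comparison group, so these values are set in part by that choice and are no test. Of the 19 genes, 5 differed without mixed barcodes, 3 of the 16 tested after thinning and 0 with no replicate block.

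Genes with a larger value in the oligodendrocyte-marker barcodes were *Cdh2* (2.54 and 0.32), *Lrp1b* (2.02 and 0.32), *Vmp1* (2.00 and -0.06), *Folh1* (1.90 and -0.05), *Cyp51* (1.72 and 0.00), *Apod* (1.51 and -0.96) and *Msmo1* (1.19 and -0.26). The astrocyte markers, which chose the class compared with, are left out. *Penk*, a neuropeptide gene, had 1.04 and 3.0.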

How the results depend on the processing

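The count of 2823 nuclear genes stayed within 1.5 times under 7 other settings and with at least 6 of 8 markers, an alternative added after seeing the data (2252). It was 1305 with no replicate block, 1178 in DESeq2 (67.7% of them higher), 4892 with library sizes of all UMIs (8.28% higher), 1031 at 30% or more and 999 after thinning. Without TMM 27.6% and without the gene filter 26.6% of the calls were higher, against 46.8% in the main fit; at 30% or more, with at least 500 genes and with 6 of 8 markers these shares were 36.5%, 38.9% and 35.2%. Without TMM the median of all genes moved from -0.07 to -0.27, and with library sizes of all UMIs to -0.64. The interaction count of 165 was 0 in edgeR with no replicate block (1011 genes had an unadjusted p under 0.05), 69 at 30% or more, 31 after thinning and 103 with at least 6 of 8 markers. Why these counts moved was not tested, except that fewer genes and UMIs were available after thinning, and that at 30% or more and after thinning only 2 classes had enough barcodes, which left 8 sums and 2 residual degrees of freedom in place of 16 and 4.

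The mean share of 12% was 16.5% with 5 of 8 markers, 15.5% with 6 of 8, 8.17% at 25% or more and 18.5% without mixed barcodes, and ran from 9.75% to 14.2% when either library was left out. Leaving out a library left no residual degrees of freedom for the nuclear genes, so only each library's fold change was read, and no called gene named here changed direction between the libraries.

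Among values that passed the test in at least 1 of the 2 fits compared, directions turned without mixed barcodes for *Cx3cr1* (0.46), *Fcgr3* (0.83), *Kctd12* (0.87), *Maf* (0.16), *Ly86* (1.35), *P2ry12* (1.27), *C1qb* (1.88), *C1qa* (1.61), *Cldn5* (2.11), *Itm2a* (0.99), *Ly6c1* (1.95), *Vtn* (0.65), *C1ql1* (1.35), *Igfbpl1* (2.27), *Dlx6os1* (2.33), *Dcx* (0.68) and *Btg2* (0.63), of which the class markers themselves define mixed barcodes. They turned after thinning for *Penk* (-0.13), *Meg3* (-0.00178) and *Hsp90aa1* (-0.46), with at least 6 of 8 markers for *C1qb* (0.18) and *Meg3* (-1.0), and with library sizes of all UMIs for *Sox10* (-0.57). Values that passed in neither fit, such as those of *Mbp* and *Sox10* without mixed barcodes, also crossed 0.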
